A study of Homo sapiens with 9 samples.

Results

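Galectins and the galectin-3 binding protein were followed in 2 human colon epithelial cell lines on 9 arrays. The family was taken as 8 genes, LGALS1, LGALS2, LGALS3, LGALS4, LGALS8, LGALS9, LGALS3BP and CLC, and every probe set whose transcript identifier belonged to one of them was used, whatever its value. All 8 were found, with 1 probe set each, among the 927 genes and 1259 probe sets of the table. The arrays formed 3 groups of 3. T84 cells, a colon carcinoma line, had received 100 U/ml interferon gamma for 24 hours in the first. Untreated T84 cells, at passage 68 and about 90% confluent in plates of 6 wells, made up the second. Untreated Caco-2 cells, another colon carcinoma line, at passage 37 and 90% confluent in the same kind of plate, made up the third. All RNA was extracted with Trizol and labelled with biotin from 0.5 ug of total RNA. For the treated cells the labels give neither passage nor confluence. The series asked which glycosylation genes go with a sialylated form of the adhesion molecule CD44 that interferon gamma raises in T84 cells and that Caco-2 cells lack. The replicates are numbered, but nothing says whether each was a culture of its own. The p-values therefore set group differences against the spread of these samples only, and that spread may be technical.

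Values are log2 signals, so a difference of 1 is a 2-fold difference in signal, and array medians lay between 6.70 and 6.80. The number of arrays limits the precision. A gene was called where the moderated test of limma, fitted on all 9 arrays, gave a Benjamini-Hochberg adjusted p below 0.05 over 1259 probe sets. All 6 genes listed for the interferon gamma response rose in treated against untreated T84 cells, where 4.37% of all probe sets were called higher. The list was written with earlier results of these data known, so these rises are no independent check of the treatment. CXCL9, a chemokine, showed the largest of these rises, by 6.12 ± 0.21 on the log2 scale (SE; limma adjusted p = 6.50e-07). Of 18 intestinal epithelial markers, 2 were measured, the mucin genes MUC2 and MUC13, so the epithelial identity of the cells could hardly be checked. MUC2 averaged 7.20 ± 0.11 in treated T84 cells, 7.03 ± 0.08 in untreated T84 cells and 6.63 ± 0.08 in Caco-2 cells (SD, n = 3 each). Treated T84 replicate 3, untreated T84 replicate 3 and Caco-2 replicate 1 deviated from their groups in the same way, with correlations of their deviations from 0.484 to 0.756. Calls that end without these 3 arrays are named where they stand. Deviations within a group balance out, so other arrays deviated the opposite way. The deviations of treated T84 replicates 1 and 3, for example, correlated at -0.882. Which arrays are the odd ones cannot be told from this.

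Galectins are small lectins that bind galactose-containing sugars, above all the lactosamine units of N-glycans, O-glycans and glycolipids. They are made in the cytosol, leave the cell without a signal peptide, and act both outside it, by cross-linking glycoproteins of the surface, and inside it. The family has 3 designs. Tandem-repeat galectins (LGALS4, LGALS8 and LGALS9 here) join a pair of sugar-binding domains in 1 chain, the chimera galectin LGALS3 joins a single domain to a long tail through which it forms multimers, and the prototype galectins (LGALS1, LGALS2 and CLC) are a single domain that dimerises. LGALS3BP is not a lectin but a secreted, heavily glycosylated scavenger-receptor protein to which galectin-3 binds. In the gut, galectin-3 and galectin-4 are well known products of the epithelium.

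Many interferon-responsive promoters hold an interferon-stimulated element of TTTC, any 2 bases and TTTC. This motif was searched on both strands of the RefSeq promoters, from 250 bases before to 50 bases after a gene's start (GRCh38.p14), which were given for 7 of the 8 genes, with 3 promoters for LGALS8. The element occurred in the promoters of LGALS9 and LGALS3BP, 2 of the 7 genes, and in at least 1 promoter of 4.38% of all 27305 genes of the table (3.57% of 35116 promoters). The promoters of LGALS9 and LGALS3BP are shown because they hold the element, in capitals, and that of LGALS4 because this gene had the largest change with treatment among the 8. A match describes letters in a window and is no evidence of binding. The windows are chr17:27630938-27631237 on the plus strand for LGALS9, chr17:78979874-78980173 on the minus strand for LGALS3BP and chr19:38812896-38813195 on the minus strand for LGALS4. Each is written in the gene's own direction.
LGALS9: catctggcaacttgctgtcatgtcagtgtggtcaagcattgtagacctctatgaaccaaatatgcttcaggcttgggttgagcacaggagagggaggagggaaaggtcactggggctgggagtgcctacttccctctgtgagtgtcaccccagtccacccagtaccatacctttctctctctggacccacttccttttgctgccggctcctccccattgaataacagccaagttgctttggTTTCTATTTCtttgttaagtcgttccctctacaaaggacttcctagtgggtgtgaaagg
LGALS3BP: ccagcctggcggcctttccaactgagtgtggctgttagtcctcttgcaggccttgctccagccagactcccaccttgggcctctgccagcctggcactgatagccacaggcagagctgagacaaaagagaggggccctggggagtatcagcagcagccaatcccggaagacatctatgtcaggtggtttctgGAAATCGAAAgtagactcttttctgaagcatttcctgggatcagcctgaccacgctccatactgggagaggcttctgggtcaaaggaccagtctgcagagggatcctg
LGALS4: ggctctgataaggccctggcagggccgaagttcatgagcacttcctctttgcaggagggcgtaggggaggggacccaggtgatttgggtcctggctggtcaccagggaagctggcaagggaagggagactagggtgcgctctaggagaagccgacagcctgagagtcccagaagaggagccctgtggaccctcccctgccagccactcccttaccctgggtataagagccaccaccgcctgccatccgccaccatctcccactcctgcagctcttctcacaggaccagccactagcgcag

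In LGALS9 the match, TTTCTATTTC, began 9 bases before the start, on the strand of the gene. In LGALS3BP it lay on the other strand, read as GAAATCGAAA on the strand of the gene, and began 58 bases before the start.

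Treated and untreated T84 cells differed in 3 of the 8 genes. LGALS9 and CLC rose, LGALS4 fell, and LGALS1, LGALS2, LGALS3, LGALS8 and LGALS3BP did not pass the test. Over all probe sets, 4.37% were called higher and 5.8% lower in this comparison, so 2 of 8 higher and 1 of 8 lower compare with 55 and 73 of 1259. All 3 changes were under 2-fold. The median log2 fold change of the 8 was -0.09, against -0.01 over all probe sets. On 4 of the 8 genes the 3 treated and 3 untreated arrays did not overlap, against 27.5% of all probe sets. Without the 3 arrays that deviated together, 1 gene rose and 1 fell.

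**Figure D1:**
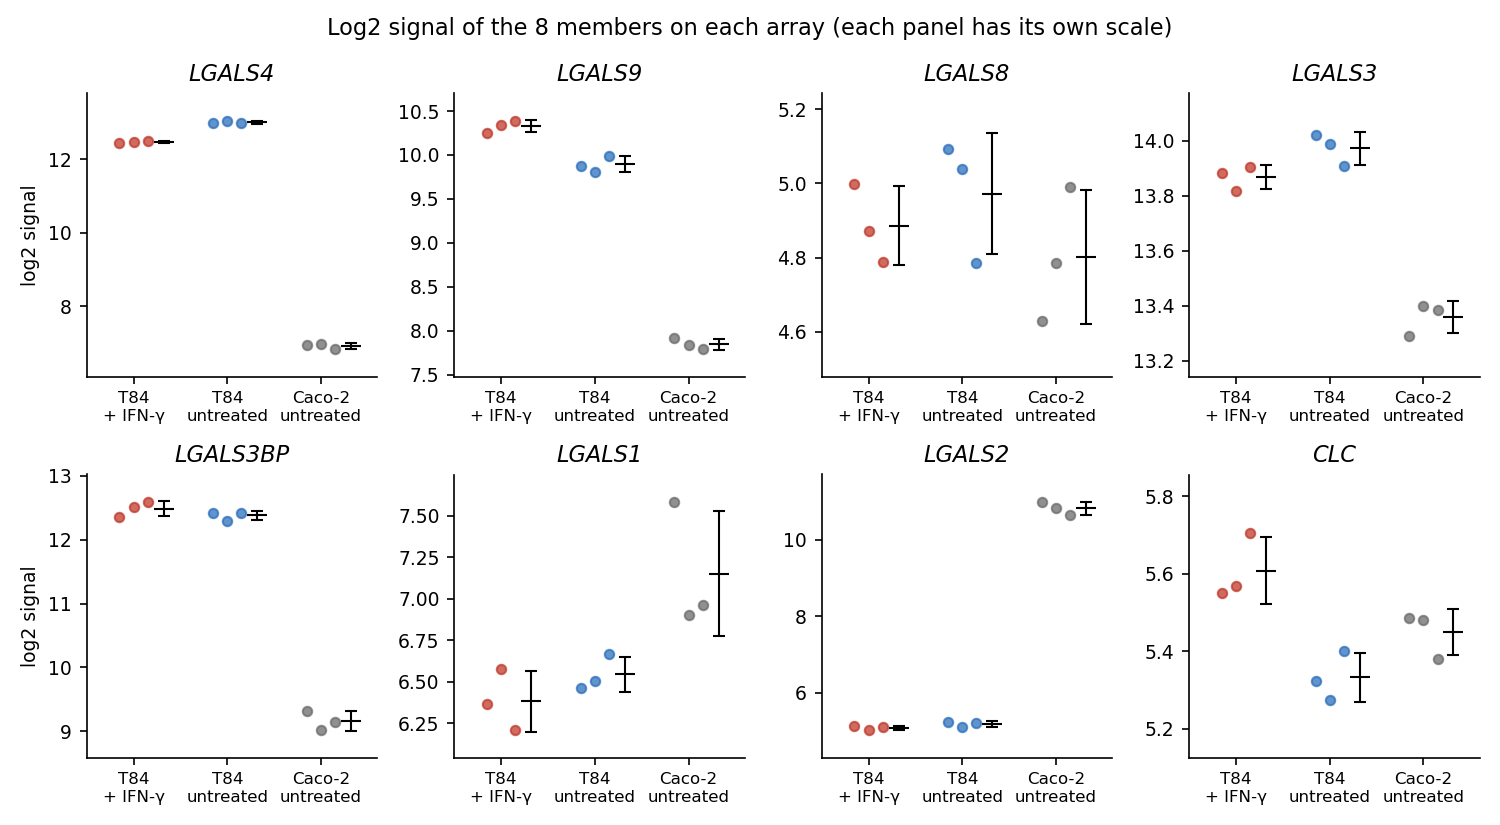
Log2 signal (vertical axis, a separate scale in each panel) of the 8 genes on each array, with treated T84 in red, untreated T84 in blue and untreated Caco-2 in grey. Points are arrays in replicate order and bars are the group mean ± SD (n = 3). LGALS4 lies near 12.5 to 13.0 in T84 cells and near 6.9 in Caco-2 cells, LGALS2 the other way round at 5.1 to 5.2 and 10.8, and the 3 groups of LGALS8 overlap.

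LGALS4, the tandem-repeat galectin of the intestinal epithelium, which takes part in the sorting of glycoproteins to the apical membrane, was lower in treated cells. Its log2 signals were 12.45, 12.46 and 12.50 in treated T84 cells, against 12.99, 13.04 and 12.98 in untreated T84 cells. The groups did not overlap, and within each the arrays stood within 0.1 of each other. The log2 fold change was -0.53 ± 0.05 (SE; limma adjusted p = 0.000241), a signal 1.45-fold lower in treated cells (95% interval 1.34 to 1.57). It ranked 75th of 1259 by the size of the change. In Caco-2 cells the signals were 6.95, 6.96 and 6.82, far below both T84 groups. Treated T84 cells were 47.3-fold above Caco-2 cells (43.7 to 51.2) and untreated T84 cells 68.5-fold (63.2 to 74.1; limma adjusted p = 3.94e-11 and 1.87e-11). By size these differences were the 6th and the 2nd of 1259. The order of the levels was therefore untreated T84, treated T84, Caco-2, with every neighbouring pair apart beyond its spread.

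LGALS9, a tandem-repeat galectin known as a ligand of the T cell receptor TIM-3 and as an interferon gamma target in endothelial cells and fibroblasts, was higher in treated cells. Its log2 signals were 10.25, 10.35 and 10.39 in treated T84 cells, against 9.88, 9.81 and 9.99 in untreated T84 cells. Every treated array stood above every untreated one. The log2 fold change was 0.44 ± 0.06 (SE; limma adjusted p = 0.00325), or 1.35-fold (1.22 to 1.50). In Caco-2 cells the signals were 7.91, 7.83 and 7.79, which placed treated T84 cells 5.59-fold (5.05 to 6.19) and untreated T84 cells 4.14-fold (3.74 to 4.58) above them (limma adjusted p = 9.66e-09 and 3.92e-08). The order was treated T84, untreated T84, Caco-2, with every pair apart. A pair of near-identical copies, LGALS9B and LGALS9C, had no probe set of their own with a symbol here, and the LGALS9 probe set may also read them. The calls of LGALS4 and LGALS9 between treated and untreated T84 cells passed under all 17 alternatives run for each, with log2 fold changes from -0.56 to -0.38 and from 0.35 to 0.59.

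LGALS8, the third tandem-repeat galectin, which marks damaged endosomes for autophagy, had log2 signals of 5.0, 4.87 and 4.79 in treated T84 cells, 5.09, 5.04 and 4.79 in untreated T84 cells and 4.63, 4.79 and 4.99 in Caco-2 cells. All 3 groups overlapped, and no order of the levels could be read. The log2 differences were -0.09 ± 0.11 for treated against untreated T84 cells, 0.08 ± 0.11 for treated T84 against Caco-2 and 0.17 ± 0.11 for untreated T84 against Caco-2 (SE; limma adjusted p = 0.810, 0.588 and 0.278). Their 95% intervals ran from -0.35 to 0.17, from -0.18 to 0.34 and from -0.09 to 0.43. Its signals lay below 5.41, the 25th percentile of the probe set means of the table, as did those of LGALS2 in T84 cells and of CLC in untreated T84 cells. The table has no detection calls, so whether these signals stand above background was not tested.

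LGALS3, the chimera galectin, a lectin of the epithelial surface and cytosol, gave log2 signals of 13.88, 13.82 and 13.90 in treated T84 cells, against 14.02, 13.99 and 13.91 in untreated T84 cells. The groups did not overlap, with 13.90 and 13.91 as the nearest values, and the log2 difference of -0.10 ± 0.05 did not pass (SE; 95% interval -0.22 to 0.01; limma adjusted p = 0.335). Centring on ribosomal protein genes turned its sign, to 0.05. Caco-2 cells had 13.29, 13.40 and 13.39. Both T84 groups stood above these, by 1.42-fold in treated (1.31 to 1.54) and 1.53-fold in untreated T84 cells (1.41 to 1.66; limma adjusted p = 5.26e-05 and 2.11e-05). Of the 6 genes that differed between T84 and Caco-2 cells in both comparisons, LGALS3 showed the smallest fold in treated T84 cells. Its probe set is shared among transcripts.

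LGALS3BP, the glycoprotein partner of galectin-3, whose promoter holds the interferon element, did not pass the test between treated and untreated T84 cells. Its log2 signals were 12.35, 12.51 and 12.59 in treated T84 cells, against 12.42, 12.30 and 12.42 in untreated T84 cells. The groups overlapped, and the difference was 0.11 ± 0.09 (SE; 95% interval -0.10 to 0.32; limma adjusted p = 0.661). Caco-2 cells had 9.32, 9.02 and 9.15. Treated T84 cells were 9.98-fold (8.63 to 11.5) and untreated T84 cells 9.28-fold (8.02 to 10.7) above them (limma adjusted p = 1.31e-08 and 2.03e-08). The lectin and its partner were both higher in T84 than in Caco-2 cells.

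**Figure D2:**
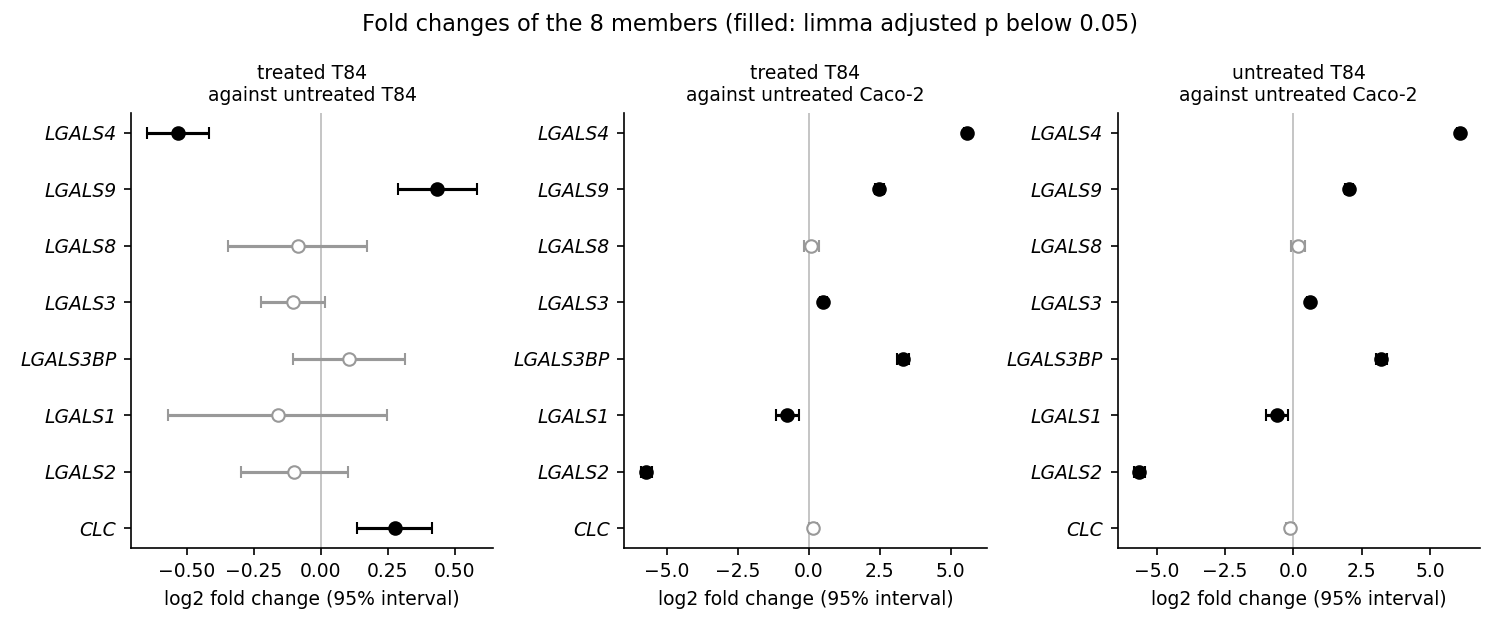
Log2 fold change (horizontal axis, a separate scale in each panel) of the 8 genes in treated against untreated T84 cells, treated T84 against Caco-2 cells and untreated T84 against Caco-2 cells. Points are estimates of the fit, bars 95% intervals, and filled points passed the test. In the left panel LGALS9 and CLC lie above 0 and LGALS4 below it, and in the other panels LGALS4 lies at 5.56 and 6.10 and LGALS2 at -5.73 and -5.63.

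The prototype genes LGALS1 and LGALS2 were lower in T84 than in Caco-2 cells, opposite to LGALS3, LGALS4, LGALS9 and LGALS3BP. LGALS2, a galectin of the gastrointestinal tract, had log2 signals of 5.14, 5.02 and 5.10 in treated T84 cells and 5.23, 5.11 and 5.22 in untreated T84 cells, against 10.98, 10.83 and 10.64 in Caco-2 cells. Both T84 groups were dim and overlapped each other, and all Caco-2 arrays stood more than 5 log2 units above them. The log2 differences in signal from Caco-2 cells were -5.73 ± 0.09 in treated T84 cells and -5.63 ± 0.09 in untreated T84 cells (SE; limma adjusted p = 3.77e-10 and 4.65e-10). They describe signals, and as the T84 signals were not shown to be above background, the differences in RNA may be larger. Between treated and untreated T84 cells the log2 difference was -0.10 ± 0.09 (SE; limma adjusted p = 0.661), and its sign turned under ribosomal centring, to 0.05.

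LGALS1, a homodimeric galectin known for inducing death of activated T cells, had log2 signals of 6.37, 6.58 and 6.21 in treated T84 cells and 6.46, 6.51 and 6.67 in untreated T84 cells, against 7.58, 6.90 and 6.97 in Caco-2 cells. The T84 groups overlapped each other, both lay below Caco-2 cells, and Caco-2 replicate 1 stood apart. The log2 fold changes were -0.77 ± 0.18 for treated T84 and -0.60 ± 0.18 for untreated T84 against Caco-2 (SE; limma adjusted p = 0.00726 and 0.0242), or 1.70-fold and 1.52-fold lower. Without Caco-2 replicate 1 they were -0.55 and -0.39 (adjusted p = 0.00342 and 0.0193). The call of untreated T84 against Caco-2 was lost without untreated T84 replicate 1 or 2 (adjusted p = 0.0769 and 0.0712). Both calls were lost under ribosomal centring, at -0.31 and -0.31 (adjusted p = 0.117 and 0.130). Treatment gave -0.16 ± 0.18 within T84 cells (SE; 95% interval -0.57 to 0.25; limma adjusted p = 0.767), the widest interval among the 8 genes.

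CLC encodes the protein of Charcot-Leyden crystals, a galectin-fold protein of eosinophils and basophils. Its log2 signals were 5.55, 5.57 and 5.71 in treated T84 cells, against 5.32, 5.27 and 5.40 in untreated T84 cells. The groups did not overlap, and all 9 signals of the gene, Caco-2 included, lay between 5.27 and 5.71. The 3 untreated T84 signals lay below 5.41, and whether they stand above background was not tested. The rise was 0.28 ± 0.06 on the log2 scale (SE; limma adjusted p = 0.0221), or 1.21-fold (1.10 to 1.33). This call was lost without treated replicate 2 or 3 or untreated T84 replicate 1 or 2 (adjusted p from 0.0580 to 0.0844), after quantile normalization (0.0561), and without the 3 arrays that deviated together (0.0504). Under ribosomal centring the change was 0.43. Caco-2 cells had 5.49, 5.48 and 5.38, between the T84 groups, and neither difference passed (0.16 ± 0.06 and -0.12 ± 0.06, SE; limma adjusted p = 0.0629 and 0.165). Of 7 eosinophil and basophil markers 3 were measured, SIGLEC8, CCR3 and IL5RA, and none passed the test in any comparison. Their mean log2 signal lay from 5.61 to 5.65 in treated T84 cells, from 5.61 to 5.66 in untreated T84 cells and from 5.56 to 5.66 in Caco-2 cells. Of 15 leukocyte markers 4 were measured and none passed between treated and untreated T84 cells. Over all probe sets, 4.37% were called higher and 5.8% lower in that comparison. The shares were 19.4% and 26.2% in treated T84 against Caco-2, and 19.5% and 24.2% in untreated T84 against Caco-2.

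Between the lines the family split. LGALS3, LGALS4, LGALS9 and LGALS3BP were higher and LGALS1 and LGALS2 lower in T84 than in Caco-2 cells, whether the T84 cells were treated or not, and LGALS8 and CLC did not pass in either comparison. The 2 comparisons share the Caco-2 arrays. In treated T84 against Caco-2, 19.4% of the whole table was called higher and 26.2% lower, and in untreated T84 against Caco-2 19.5% and 24.2%, beside 4 higher and 2 lower of the 8 genes in each. Arrays did not overlap for 7 of the 8 genes in the first comparison and 6 in the second, against 53.5% and 49.6% of all probe sets. The median size of the log2 difference was 1.63 and 1.33 over the 8 genes, and 0.214 and 0.199 over all probe sets. Of the 8 genes, 4 passed the test with at least a 2-fold difference in each comparison, against 17.1% and 15.4% of all probe sets. The counts were the same, 4 higher and 2 lower, without the 3 arrays that deviated together. Centring on 50 probe sets of ribosomal protein genes moved the median of all probe sets from 0.02 to 0.47 for treated T84 and from 0.02 to 0.32 for untreated T84 against Caco-2, and from -0.01 to 0.14 for treated against untreated T84. On that scale 6 genes, LGALS8 and CLC now among them, were higher and 1 lower in each comparison with Caco-2. In treated and untreated T84 cells LGALS8 stood 0.54 and 0.47, CLC 0.61 and 0.18, and LGALS3 0.96 and 0.91 above Caco-2. Of all 1259 probe sets, 914 were then higher and 174 lower for treated T84, and 845 and 188 for untreated T84. Most of the table was thus higher on that scale, and the counts of the 8 genes do not stand apart from it.

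Of 9 further galectin and galectin-like genes, 5 were measured. LGALS13, a placental galectin, was higher in treated than in untreated T84 cells, at 5.06 ± 0.03 against 4.78 ± 0.04 (SD, n = 3 each), higher by 0.28 ± 0.05 on the log2 scale (SE; limma adjusted p = 0.00630). The other 4, LGALS7, LGALS12, LGALS14 and LGALSL, did not pass there. LGALS14, also placental, had a difference of 0.26 ± 0.08 (SE; limma adjusted p = 0.0759). Against Caco-2 cells LGALS13 was lower, at log2 fold changes of -0.62 in treated and -0.90 in untreated T84 cells (limma adjusted p = 7.05e-06 and 8.67e-07). LGALS14 was also lower, at 4.87 ± 0.07 in treated T84 cells and 4.61 ± 0.01 in untreated T84 cells, against 6.72 ± 0.15 in Caco-2 cells (SD, n = 3 each; limma adjusted p = 2.03e-07 and 1.03e-07). The T84 levels of LGALS13 and of LGALS14, treated and untreated, lie below 5.41. Whether they stand above background was not tested, and this holds for the rise of LGALS13 with treatment too. LGALSL passed only in treated T84 cells (-0.25, adjusted p = 0.0304), a call that was lost without the 3 arrays (0.0517) and whose sign turned under ribosomal centring. LGALS4, LGALS13, LGALS16, LGALS14 and CLC, the only genes whose order was looked up, lie on chromosome 19 in that order. Whether other galectin genes lie near or among them was not looked up.

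The sugars that galectins bind are built by branching and chain-extending enzymes and capped by sialyl- and fucosyltransferases. Of 30 such genes, all measured, 1 fell, none rose and 29 did not pass in treated against untreated T84 cells, where 5.8% of all probe sets were called lower and 4.37% higher. The one that fell was ST3GAL4, which caps lactosamine with sialic acid. It averaged 8.17 ± 0.09 in treated and 8.72 ± 0.12 in untreated T84 cells (SD, n = 3 each), a log2 fold change of -0.55 (limma adjusted p = 0.0139). That call was lost without treated replicate 1 or 2 or untreated T84 replicate 3 (adjusted p = 0.0543, 0.0589 and 0.0573). Against Caco-2 cells, 6 were higher and 10 lower in treated T84 cells, beside 19.4% and 26.2% over the whole table. In untreated T84 cells 8 were higher and 7 lower, beside 19.5% and 24.2%. These counts lie near the shares of the whole table. GCNT2, which makes branched chains of the I antigen, was lower in T84 cells, at 5.56 ± 0.09 in treated T84 cells and 5.43 ± 0.15 in untreated T84 cells, against 9.01 ± 0.06 in Caco-2 cells (SD, n = 3 each). GCNT3, a branching enzyme of mucin O-glycans, was 4.06-fold and 3.94-fold higher. ST3GAL6, another capping sialyltransferase, was lower in T84 cells, at log2 signals of 3.72 ± 0.09 in treated T84 cells and 3.60 ± 0.15 in untreated T84 cells, against 6.77 ± 0.38 in Caco-2 cells (SD, n = 3 each). Whether the T84 signals of GCNT2 and ST3GAL6 stand above background was not tested, so no fold is given for them. All 3 of these enzymes had limma adjusted p at or below 4.61e-06 in both comparisons. Of the 16 calls in treated T84 cells 8 were lost without some single array and 6 turned sign under ribosomal centring, and of the 15 in untreated T84 cells 5 were lost without some single array and none turned sign. GCNT2, GCNT3 and ST3GAL6 were not among these. Without the 3 arrays that deviated together, the calls of B4GALT1 and B4GALT5, which add galactose, were lost in treated T84 (adjusted p = 0.101 and 0.116) and in untreated T84 cells against Caco-2 (0.0677 and 0.0760). Under ribosomal centring their log2 fold changes in untreated T84 against Caco-2 cells shrank from -0.37 and -0.34 to -0.07 and -0.04. Only the sign of these enzymes was followed on that scale, not whether their calls still passed.

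Of 19 glycoproteins known to bind galectins, 7 were measured. MUC1, MUC4 and MUC13, membrane mucins of the epithelium, rose in treated against untreated T84 cells, by log2 fold changes of 1.26, 1.42 and 0.40 (limma adjusted p = 9.74e-07, 8.74e-06 and 0.0104). The other 4 measured did not pass, among them CD44, at a log2 difference of -0.29 ± 0.11 (SE; 95% interval -0.54 to -0.04; limma adjusted p = 0.181). The share of all probe sets called higher there was 4.37%. Against Caco-2 cells 5 of the 7 were higher and 1 lower in treated T84 cells, beside 19.4% and 26.2% of the whole table. In untreated T84 cells 3 of the 7 were higher and none lower, beside 19.5% and 24.2%. CD44, the adhesion molecule of the series, had 9.99 ± 0.09 in treated T84 cells, 10.28 ± 0.12 in untreated T84 cells and 5.60 ± 0.21 in Caco-2 cells (SD, n = 3 each). The 1 that was lower was LAMP2, a lysosomal membrane protein, at -0.20 (adjusted p = 0.0340), which was lost without the 3 arrays (0.137) and turned sign under ribosomal centring.

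For the 4 genes whose group means spanned at least 1 log2 unit, the 3 most similar of 919 other genes were sought, by the root mean square difference over the 9 arrays after each gene's mean was removed. The genes share all 9 arrays, and the measure is a description. LGALS9 had one close match, MUC13, at a root mean square difference of 0.0847 log2 units, with group means of 12.38 in treated T84 cells, 11.98 in untreated T84 cells and 9.92 in Caco-2 cells. Its next matches, CXCL8 and JUNB, were at 0.245 and 0.247, on probe sets that can cross-hybridise. LGALS3BP was most like CHST7, GDF15 and FUT3, at 0.188 to 0.252. LGALS2 was most like AHSG, GPC3 and FGFR2, at 0.332 to 0.353, of which AHSG is known as a plasma protein made by the liver. No gene came close to LGALS4, whose nearest were CD44, ST6GALNAC1 and UGT1A1 at 0.629 to 0.816. Its step between the lines was larger than theirs.

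**Figure D3:**
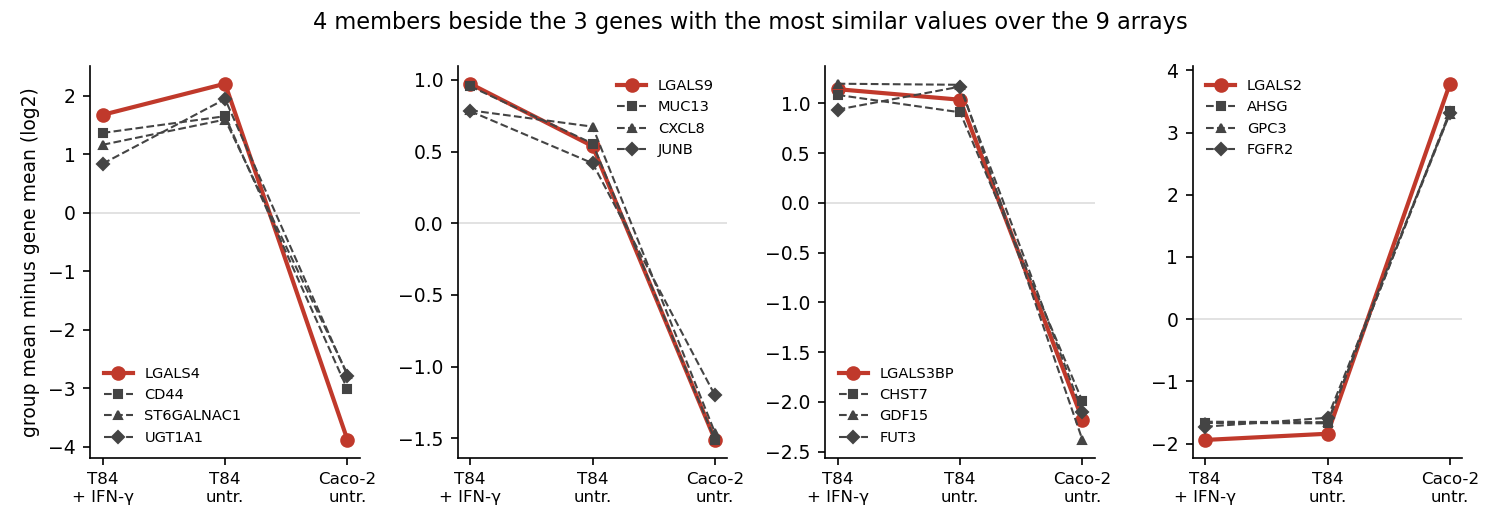
Group means of LGALS4, LGALS9, LGALS3BP and LGALS2 (red) and of the 3 genes most like each (dashed), as log2 signal minus the gene's mean over the 9 arrays (vertical axis, a separate scale in each panel), in treated T84, untreated T84 and Caco-2 cells. MUC13 runs along LGALS9, and the genes beside LGALS4 span less than it does.

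**Figure D4:**
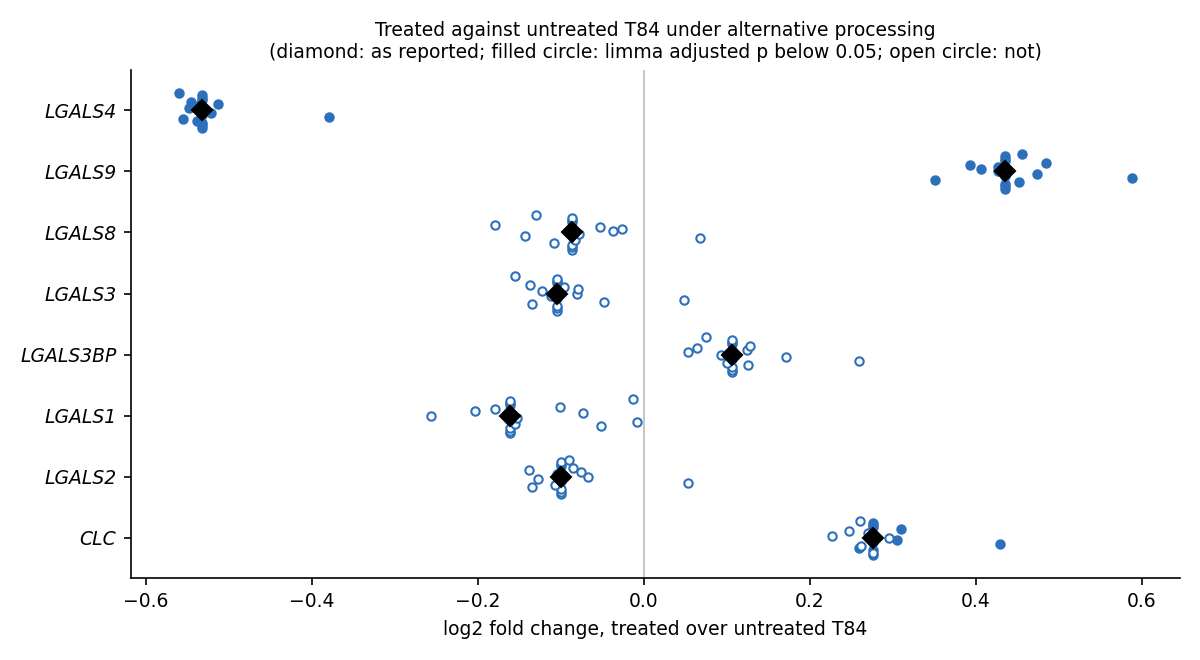
Log2 fold change of treated over untreated T84 cells (horizontal axis) for each of the 8 genes as reported (diamond) and under each alternative processing (circles, filled where the limma adjusted p was below 0.05). All circles of LGALS4 and LGALS9 are filled, those of CLC are mixed, and those of LGALS2, LGALS3 and LGALS8, all open, reach both sides of 0.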

How the data were processed

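Total RNA of 9 samples was hybridised as biotin-labelled cRNA to single-colour arrays. The deposited values, log2 signals of probe sets, had been summarised by the authors with RMA, per the submitters' processing notes. Neither the version nor a filter is stated there. No further normalization was applied. A RefSeq table, matched by transcript identifier without version, gave 1 symbol to 1043 of 1259 probe sets and none to 216. More than 1 probe set was present for 93 genes. Listed genes and genes compared for likeness were each read from their probe set with the highest mean over the 9 arrays. Other probe sets of those genes were not counted.

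Groups followed the labels. The 9 arrays entered a single limma fit (version 3.58.1, lmFit and eBayes, R 4.3.3) with the group as factor, 6 residual and 2.12 prior degrees of freedom. P-values were adjusted by Benjamini-Hochberg over the whole table, with calls at an adjusted p below 0.05. The fit was tested on simulated data. Errors of fold changes are standard errors, and intervals are at 95%. All 8 member genes are named; other genes were counted by list and named where they passed, at most 4 a list and comparison by adjusted p, or where a marker list, a comparison or the likeness rule called for it. LGALS14, MUC2 and genes that did not pass were named after their values were seen. Members, lists and rules were chosen with earlier results of these data known. Of the alternatives tried, 18 in all, leaving out 3 arrays together was chosen after seeing the data. Sequences came from RefSeq (GRCh38.p14). A second motif search is not reported here. Figures were drawn with matplotlib 3.10.9 from tables made with pandas 2.3.3.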

Additional observations from a re-analysis of the deposited data

How the results depend on the processing

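Of the fold changes of the 8 genes under the 17 alternatives that apply to them, 384 kept their direction and side of the threshold, 5 gained and 11 lost the call, and 5 changed sign. Ribosomal centring turned CLC in untreated T84 against Caco-2 (0.18) and LGALS2 (0.053), LGALS3 (0.049) and LGALS8 (0.067) in treated against untreated T84, and leaving out single arrays took LGALS8 in treated T84 against Caco-2 from -0.0017 to 0.18. None of these was called as reported. In treated against untreated T84, where LGALS9 and CLC were higher, 1 gene was called higher with the replicate block (CLC at an adjusted p of 0.0662), after quantile normalization, and without the 3 arrays that deviated together, and 1 to 2 when single arrays were left out. Lower genes in untreated T84 against Caco-2 numbered 1 under ribosomal centring and 1 to 2 without single arrays, and in treated T84 against Caco-2 1 under ribosomal centring, each against 2. The replicate block changed no other call among the 8 genes. Replicate numbers did not pair the samples throughout, since correlations of same-numbered deviations ran from -0.643 to 0.561 and 3 of 9 were over 0.1. Between treated and untreated T84 cells the same-numbered pairs had 0.386, -0.024 and 0.561. Pairing within T84 cells alone was not tested. Over all probe sets, ribosomal centring gave 360 calls, 308 higher, in treated against untreated T84 (128 and 55 as reported), 1088, with 914 higher and 174 lower, in treated T84 against Caco-2 (574, 244 and 330), and 1033, with 845 higher and 188 lower, in untreated T84 against Caco-2 (550, 245 and 305). Array weights gave 231 calls, 87 higher and 144 lower, in the first comparison and 368 higher in the second. Without single arrays, 40 to 108 were lower in the first, against 73; the lowest counts, 40, 44 and 48, came without treated replicate 2, untreated T84 replicate 3 and treated replicate 3. The filter on dim probe sets left no value for LGALS8. The cause of these changes was not tested. With 3 arrays a group and no detection calls, small changes of dim probe sets have the least support.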

Other observations

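Genes of fibroblasts and endothelial cells were counted as a check of other cell types. Of 12 such markers 6 were measured, and none passed in treated against untreated T84 cells. Over all probe sets, 4.37% were called higher and 5.8% lower there. In each comparison with Caco-2 cells 3 of the 6, LUM, PDGFRB and PECAM1, were lower in T84 cells. The share of all probe sets called lower was 26.2% for treated and 24.2% for untreated T84 cells. The mean log2 signal of the 6 markers lay from 4.65 to 4.72 in treated T84, at 4.67 on each array of untreated T84 and from 4.93 to 5.05 in Caco-2 cells. CD22, a lectin of B cells that binds sialic acid, was the only one of the 4 measured leukocyte markers to pass in any comparison, at log2 fold changes of 0.22 in treated and 0.34 in untreated T84 against Caco-2 cells (limma adjusted p = 0.0408 and 0.00603). The first of these calls was lost without each of 7 arrays in turn. Over all probe sets, 19.4% and 19.5% were called higher in these comparisons.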
